A study of Homo sapiens with 6 samples.

Results

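The 40 genes described here are 24 genes that carry glucose to lactate and 16 genes of the hypoxia response. The first set holds 2 glucose carriers, 15 glycolytic enzymes, 2 regulators of phosphofructokinase and 5 genes of the lactate and pyruvate branch. The second holds HIF1A, which encodes an oxygen-regulated subunit of hypoxia-inducible factor (HIF), and 15 HIF targets outside glycolysis. The genes were chosen by symbol, all 40 were matched to 1 gene each among 61498, and all 40 passed the filter on low counts that left 20081 genes. RNA-seq after removal of ribosomal RNA was done on 6 libraries, 2 for each of 3 human lines that were left untreated. RPMI-8226-R is a derivative of the RPMI-8226 line that is resistant to bortezomib, a proteasome inhibitor used against myeloma. RPMI-8226, its parent, is a line of malignant plasma cells. NCI-BL2171 is labelled a line of B lymphocytes. The labels do not state the oxygen, medium or density of the cultures, how resistance was selected or whether RPMI-8226-R is 1 clone. Any such difference cannot be told apart from the difference between lines. Whether each line was cultured separately for its 2 libraries is not stated, so p-values measure only the spread between libraries, which may be technical.

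Estimated reads per library lay between 25695927 and 26860081 in RPMI-8226-R, 27947579 and 29052199 in RPMI-8226 and 23952370 and 26790603 in the NCI-BL2171 libraries. The 14 B and plasma cell markers summed to 32860 to 33900 TPM (transcript abundance per length, relative to the library) in RPMI-8226-R, 59260 to 62000 TPM in RPMI-8226 and 52.3 to 53.45 TPM in the libraries labelled NCI-BL2171. In the NCI-BL2171 libraries MS4A1, JCHAIN, TNFRSF17, IRF4 and SLAMF7 were at 0. The part of marker levels in the differences below was not tested. The 14 erythroid markers, among them fetal globins and glycophorins, summed there to 61680 to 64480 TPM with all 14 at 1 TPM or more, against 173.9 to 188.6 TPM in RPMI-8226-R and 63.67 to 65.89 TPM in RPMI-8226. The markers of the NCI-BL2171 libraries therefore went against their label, and they are called the libraries labelled NCI-BL2171 throughout. T and NK cell, myeloid and stromal markers summed to at most 6.917, 53.1 and 15.78 TPM in any library.

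Glycolysis splits glucose into pyruvate, which lactate dehydrogenase turns into lactate or which enters mitochondria through pyruvate dehydrogenase. HIF is a pair of an alpha subunit and ARNT; when oxygen is ample, prolyl hydroxylases of the EGLN family mark the alpha subunit, VHL binds it and the proteasome destroys it. When oxygen is scarce the pair binds DNA words that contain ACGTG or GCGTG and raises many glycolytic genes together with genes of blood vessel growth, mitophagy, collagen hydroxylation and its own control. Because HIF1A is governed mainly as a protein, its transcript is a poor measure of HIF activity.

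The 250 bases before the RefSeq start (GRCh38.p14) of 8 of the genes are shown because they belong to the genes on which the results turn. ANKRD37, P4HA1, BNIP3 and ALDOC had large falls in RPMI-8226-R, PGK1 and LDHA had moderate falls, LDHB did not pass the test and PFKP rose. Capitals mark ACGTG or GCGTG on either strand, which on the other strand read CACGT or CACGC.
ANKRD37, chr4:185396591-185396840, plus strand: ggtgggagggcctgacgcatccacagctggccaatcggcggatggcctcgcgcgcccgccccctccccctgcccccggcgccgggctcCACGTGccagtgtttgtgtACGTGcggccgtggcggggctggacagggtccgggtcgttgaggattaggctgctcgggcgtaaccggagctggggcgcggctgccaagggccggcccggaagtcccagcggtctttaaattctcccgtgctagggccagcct
P4HA1, chr10:73096867-73097116, minus strand: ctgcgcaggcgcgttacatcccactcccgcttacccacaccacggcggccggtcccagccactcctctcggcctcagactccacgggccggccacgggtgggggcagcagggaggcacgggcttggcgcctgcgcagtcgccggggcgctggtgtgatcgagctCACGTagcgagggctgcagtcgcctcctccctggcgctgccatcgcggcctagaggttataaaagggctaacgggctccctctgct
BNIP3, chr10:131981924-131982173, minus strand: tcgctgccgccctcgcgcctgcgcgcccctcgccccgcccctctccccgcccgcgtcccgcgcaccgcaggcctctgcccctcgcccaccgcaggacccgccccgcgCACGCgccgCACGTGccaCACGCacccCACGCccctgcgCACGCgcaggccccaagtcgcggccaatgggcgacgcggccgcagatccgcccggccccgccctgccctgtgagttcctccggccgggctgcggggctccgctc
ALDOC, chr17:28576896-28577145, minus strand: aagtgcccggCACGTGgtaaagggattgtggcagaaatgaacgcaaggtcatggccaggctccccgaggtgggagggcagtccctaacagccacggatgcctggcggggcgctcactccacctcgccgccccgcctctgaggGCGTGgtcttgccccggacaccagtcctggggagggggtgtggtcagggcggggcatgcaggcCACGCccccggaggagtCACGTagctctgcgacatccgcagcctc
PGK1, chrX:78103998-78104247, plus strand: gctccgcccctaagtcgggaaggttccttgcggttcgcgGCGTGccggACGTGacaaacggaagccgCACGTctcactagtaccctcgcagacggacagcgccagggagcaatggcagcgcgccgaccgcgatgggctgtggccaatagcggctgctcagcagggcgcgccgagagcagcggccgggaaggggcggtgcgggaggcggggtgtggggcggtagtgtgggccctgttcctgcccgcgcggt
LDHA, chr11:18394313-18394562, plus strand: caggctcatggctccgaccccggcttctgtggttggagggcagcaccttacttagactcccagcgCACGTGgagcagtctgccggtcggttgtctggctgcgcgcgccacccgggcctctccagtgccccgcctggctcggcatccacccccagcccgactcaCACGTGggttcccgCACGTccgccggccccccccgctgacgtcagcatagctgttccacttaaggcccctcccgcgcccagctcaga
LDHB, chr12:21657843-21658092, minus strand: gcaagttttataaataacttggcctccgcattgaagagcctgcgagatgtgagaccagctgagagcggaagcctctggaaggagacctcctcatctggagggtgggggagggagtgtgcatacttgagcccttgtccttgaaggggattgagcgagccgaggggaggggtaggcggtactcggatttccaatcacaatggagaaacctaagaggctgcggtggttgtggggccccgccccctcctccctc
PFKP, chr10:3067720-3067969, plus strand: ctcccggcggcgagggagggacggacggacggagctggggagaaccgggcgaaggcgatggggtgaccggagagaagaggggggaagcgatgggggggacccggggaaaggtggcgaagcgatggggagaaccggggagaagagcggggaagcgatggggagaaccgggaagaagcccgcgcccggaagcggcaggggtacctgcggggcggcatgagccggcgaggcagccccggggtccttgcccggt

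The words are common, so these windows show them without saying that HIF binds there. A window was available for 34 of the 40 genes, and 20 of them (58.8%) held at least 1 word, against 56.1% of the 12153 windows of genes tested and 43.1% of all 27305. Of the glycolytic enzymes 9 of 15 windows held one, and of the HIF targets outside glycolysis 7 of 11. The word CACGTG, which contains ACGTG on both strands, was in 6 of the 34 (17.6%), against 8.72% of genes tested. With CACGTG left aside, 19 windows (55.9%) held a word, against 52.5% of genes tested. For 28 of the 34 windows the bases just after the start were found in a GENCODE transcript. P4HA1 and PFKP were not among these, and the ANKRD37 window lies inside the span given below for that gene. Whether these starts are in use in these lines was not tested. LDHA, which fell, holds CACGTG at 2 places, and LDHB and PFKP hold neither word in this window. The windows shown do not stand for all of them. SLC2A1, HK1, TPI1, PGAM1, PKM, PDK1, SLC16A3, EGLN3, P4HA2, MXI1 and MIF also fell, and their windows hold no word. HIF1A and EGLN1, which did not pass, hold 1 word each. Whether words go with falls was not tested.

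Most of the 40 genes were lower in RPMI-8226-R than in its parent. By edgeR's quasi-likelihood test with Benjamini-Hochberg adjustment at 0.05 over all genes tested, 34 fell, 2 rose and 4 did not pass. Over all 20081 genes 37.2% fell and 28.5% rose, so that being called lower was common in this comparison. The median log2 fold change of RPMI-8226-R over RPMI-8226 was -1.39 for the 40 genes and -0.12 for all genes tested. On the deposited TPM scale all genes shifted by a median of 0.36 relative to this scale, with 22.7% of genes falling and 35.0% rising, and there 32 of the 40 fell and 4 rose. Levels below are CPM, the reads of a gene relative to its library total after TMM scaling, which serve for one gene across libraries, and TPM wherever genes are compared with each other. In bulk RNA a lower level may mean fewer cells that express a gene or less of its RNA per cell, which cannot be told apart.

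**Figure D1:**
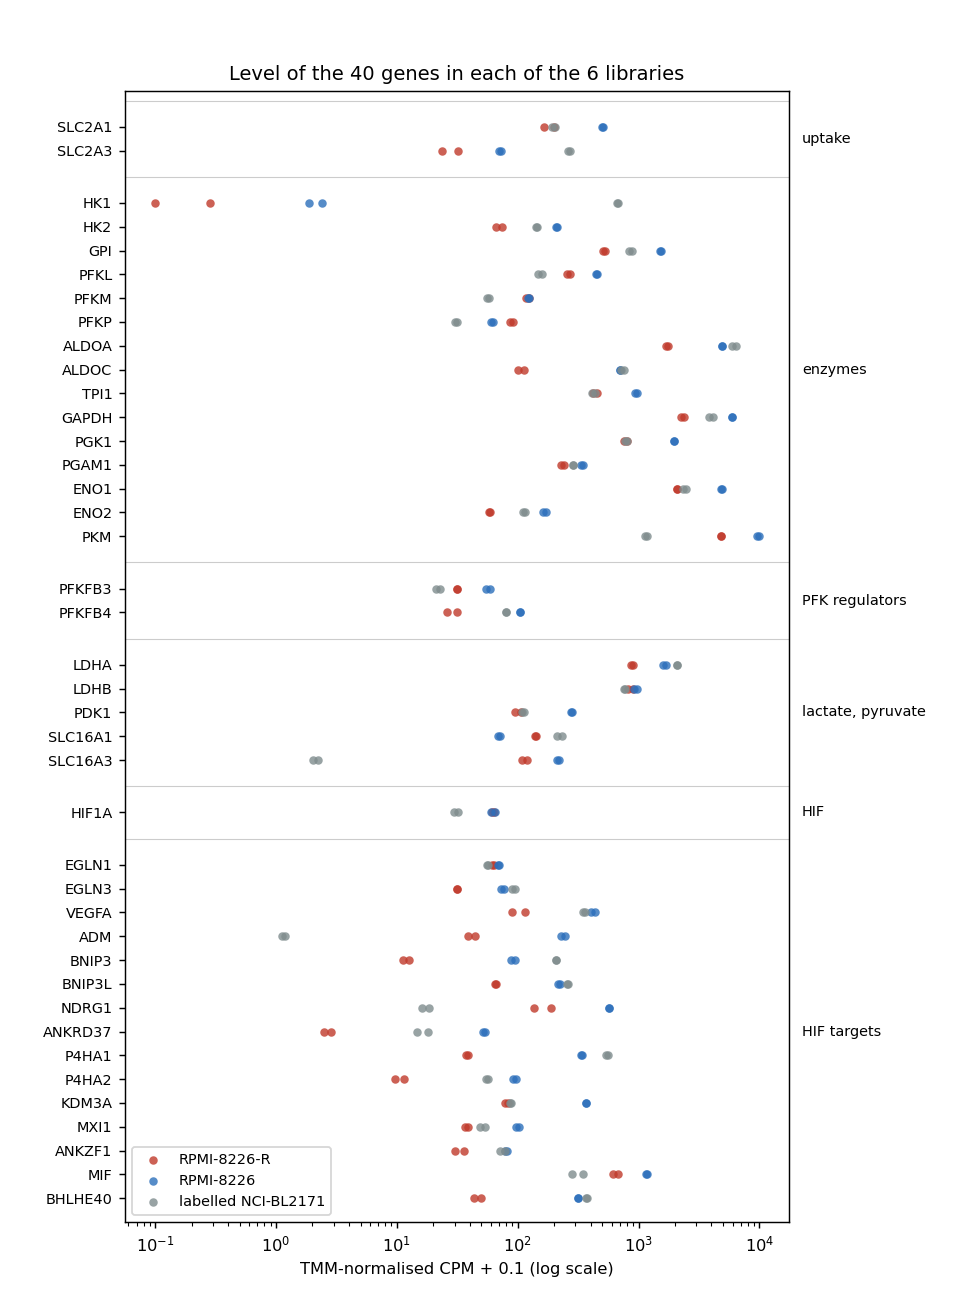
Level of each of the 40 genes in the 6 libraries, as TMM-normalised CPM plus 0.1 on a log axis, with genes grouped by role down the page and points coloured by line. Both RPMI-8226-R points lie left of both RPMI-8226 points for most genes, for example ANKRD37 at 2.39 and 2.74 CPM in RPMI-8226-R against 51.4 and 53.0 CPM in RPMI-8226, and right of them for PFKP and SLC16A1.

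Both glucose carriers among the 40 genes fell. SLC2A1 (GLUT1), the widespread basal carrier, had 165 and 199 CPM in RPMI-8226-R, 496 and 507 CPM in RPMI-8226 and 204 and 191 CPM in the libraries labelled NCI-BL2171. It was thus highest in RPMI-8226, and its RPMI-8226-R libraries overlapped those labelled NCI-BL2171 (edgeR log2 fold change over RPMI-8226 -1.46 ± 0.08 SE, adjusted p = 1.8e-12). SLC2A3 (GLUT3), a carrier with high affinity for glucose, had 23.4 and 32.0 CPM in RPMI-8226-R, 69.7 and 72.3 CPM in RPMI-8226 and 260 and 273 CPM in the libraries labelled NCI-BL2171. Its lines did not overlap, and it fell 2.56-fold in RPMI-8226-R against RPMI-8226 (edgeR log2 -1.36 ± 0.11 SE, adjusted p = 4.7e-07). In a list of other glycolytic isoenzymes and glucose carriers, 4 of 19 tested genes rose and 9 fell. Over all genes tested 28.5% rose and 37.2% fell. Of the carriers in that list, SLC2A6 rose 2.22-fold, SLC2A5 rose 1.46-fold and SLC2A13 fell 2.81-fold (edgeR adjusted p = 2.5e-08, 7.3e-04 and 2.2e-09).

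Of the 15 glycolytic enzymes 13 fell in RPMI-8226-R, 1 rose and 1 did not pass, with a median log2 fold change of -1.32. Over all genes tested 37.2% fell and 28.5% rose. Hexokinases take the first step, and which of the listed HK1 and HK2 was the higher differed between lines. HK2 had 65.4 and 74.6 CPM in RPMI-8226-R, 210 and 209 CPM in RPMI-8226 and 142 and 145 CPM in the libraries labelled NCI-BL2171. It fell 2.99-fold against RPMI-8226 (edgeR log2 -1.58 ± 0.07 SE, adjusted p = 4.3e-14). HK1 had 5 and 0 reads in RPMI-8226-R and 62 and 45 reads in RPMI-8226, against 18341 and 16317 reads in the libraries labelled NCI-BL2171. In TPM, HK1 made up 0 to 0.435% of the pair in RPMI-8226-R and 1.3 to 1.73% in RPMI-8226, against 87.6 to 89.1% in the libraries labelled NCI-BL2171. ADPGK, from the list of other glycolytic isoenzymes and chosen after its values were seen, is not in this share. It rose 1.44-fold, with a mean of 94.2 TPM in RPMI-8226-R against 49.2 TPM in RPMI-8226 (edgeR adjusted p = 5.5e-07). HK1 counted among the falls (edgeR log2 -4.45 ± 0.45 SE, adjusted p = 7.6e-08, between -8.77 and -3.42 with either RPMI-8226-R library left out), although RPMI-8226 itself had no more than 2.3 CPM.

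Further enzymes of the upper part of the pathway were lower as well. GPI, which turns glucose phosphate into fructose phosphate, had 504 and 526 CPM in RPMI-8226-R against 1540 and 1510 CPM in RPMI-8226, a 2.96-fold fall (edgeR adjusted p = 7.4e-15). ALDOA, the main aldolase of most tissues, had 1740 and 1690 CPM in RPMI-8226-R, 4890 CPM in both RPMI-8226 libraries and 6420 and 5930 CPM in the libraries labelled NCI-BL2171. ALDOC, an aldolase best known from brain, had 99.7 and 112 CPM in RPMI-8226-R, 707 and 695 CPM in RPMI-8226 and 753 and 716 CPM in the libraries labelled NCI-BL2171. Both aldolases were lowest in RPMI-8226-R, where ALDOC fell 6.61-fold (edgeR log2 -2.73 ± 0.07 SE, adjusted p = 5.6e-18) and ALDOA fell 2.85-fold (edgeR log2 -1.51 ± 0.06 SE, adjusted p = 2.0e-14). The ALDOC share of the summed TPM of both was 4.79 and 5.46% in RPMI-8226-R, 10.9 and 11.0% in RPMI-8226 and 8.79 and 9.15% in the libraries labelled NCI-BL2171.

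The enzymes from triose phosphate to pyruvate all fell, by 1.45-fold to 2.88-fold. GAPDH, often used as a reference gene, had 2390 and 2260 CPM in RPMI-8226-R, 5900 and 5960 CPM in RPMI-8226 and 4110 and 3840 CPM in the libraries labelled NCI-BL2171, so that its lines did not overlap (edgeR log2 -1.35 ± 0.06 SE, adjusted p = 1.2e-13). PGK1, the first enzyme of the pathway to yield ATP, had 804 and 762 CPM in RPMI-8226-R, 1960 and 1950 CPM in RPMI-8226 and 808 and 775 CPM in the libraries labelled NCI-BL2171. RPMI-8226 alone stood out for PGK1, with the other lines overlapping. TPI1, which interconverts the trioses, gave the same order, with 456 and 422 CPM in RPMI-8226-R, 964 and 941 CPM in RPMI-8226 and 433 and 413 CPM in the libraries labelled NCI-BL2171. PGAM1, phosphoglycerate mutase, moved least among them, with 239 and 228 CPM in RPMI-8226-R against 333 and 346 CPM in RPMI-8226 (edgeR log2 -0.54 ± 0.06 SE, adjusted p = 1.1e-07). Its fall did not pass edgeR's test against a 1.5-fold change (adjusted p = 0.802).

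ENO1, the widespread enolase, had 2090 and 2060 CPM in RPMI-8226-R against 4820 and 4870 CPM in RPMI-8226, and ENO2, the neuronal form, had 58.6 and 57.5 CPM against 163 and 171 CPM. Both of these enolases fell, and ENO1 kept 96.2 to 96.8% of the summed TPM of this pair in both lines. ENO3, an enolase gene outside the list, is not in this share. It fell 2.57-fold, with a mean of 54.2 TPM in RPMI-8226-R against 107 TPM in RPMI-8226. PKM, pyruvate kinase, had 4760 and 4800 CPM in RPMI-8226-R, 9500 and 9850 CPM in RPMI-8226 and 1180 and 1120 CPM in the libraries labelled NCI-BL2171. It fell 2.02-fold against RPMI-8226 (edgeR log2 -1.02 ± 0.06 SE, adjusted p = 7.3e-12) yet remained above the libraries labelled NCI-BL2171. PKM was the highest of the 15 enzymes in TPM in RPMI-8226-R, with 38.0 and 39.4% of their sum, and in RPMI-8226, with 31.6 and 33.0%. ALDOA was the highest in the libraries labelled NCI-BL2171, with 44.7 and 44.6%. The 15 enzymes summed to 11950 and 12670 TPM in RPMI-8226-R, 22410 and 22050 TPM in RPMI-8226 and 15650 and 15180 TPM in the libraries labelled NCI-BL2171.

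Of the 3 phosphofructokinases, which catalyse the committed step, 1 fell, 1 rose and 1 did not pass. PFKL, the liver type, had 256 and 268 CPM in RPMI-8226-R against 451 and 445 CPM in RPMI-8226, a fall of 0.78 ± 0.06 SE on the log2 scale (edgeR adjusted p = 5.3e-10) that did not pass on the TPM scale (limma-trend, -0.31, adjusted p = 0.0612). PFKM, the muscle type, had 117 and 124 CPM in RPMI-8226-R against 122 and 124 CPM in RPMI-8226. Its libraries overlapped (edgeR log2 -0.03 ± 0.07 SE, adjusted p = 0.751), whereas on the TPM scale, with its shift of 0.36, its difference was 0.36 (limma-trend, adjusted p = 0.0309). PFKP, the platelet type, was the 1 enzyme that rose, with 90.6 and 86.0 CPM in RPMI-8226-R, 62.2 and 60.4 CPM in RPMI-8226 and 31.6 and 29.9 CPM in the libraries labelled NCI-BL2171. The rise was 1.44-fold (edgeR log2 0.53 ± 0.07 SE, adjusted p = 1.9e-06) and did not pass a test against a change of 1.5-fold. In TPM, PFKL held 46.7 and 43.4% of the trio in RPMI-8226-R against 54.9 and 62.7% in RPMI-8226, and PFKP held 15.8 and 14.5% against 9.77 and 7.68%.

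PFKFB3 and PFKFB4, the listed genes among those whose enzymes make the sugar bisphosphate that activates phosphofructokinase, both fell. PFKFB4 had 25.9 and 31.2 CPM in RPMI-8226-R, 105 CPM in both RPMI-8226 libraries and 80.2 and 80.0 CPM in the libraries labelled NCI-BL2171, a 3.67-fold fall against RPMI-8226 (edgeR adjusted p = 3.9e-14). PFKFB3 had 31.5 and 31.4 CPM in RPMI-8226-R, 59.3 and 55 CPM in RPMI-8226 and 22.6 and 20.8 CPM in the libraries labelled NCI-BL2171. Its fall of 0.86 ± 0.09 SE on the log2 scale (edgeR adjusted p = 1.7e-08) did not pass on the TPM scale (limma-trend, -0.40, adjusted p = 0.213).

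**Figure D2:**
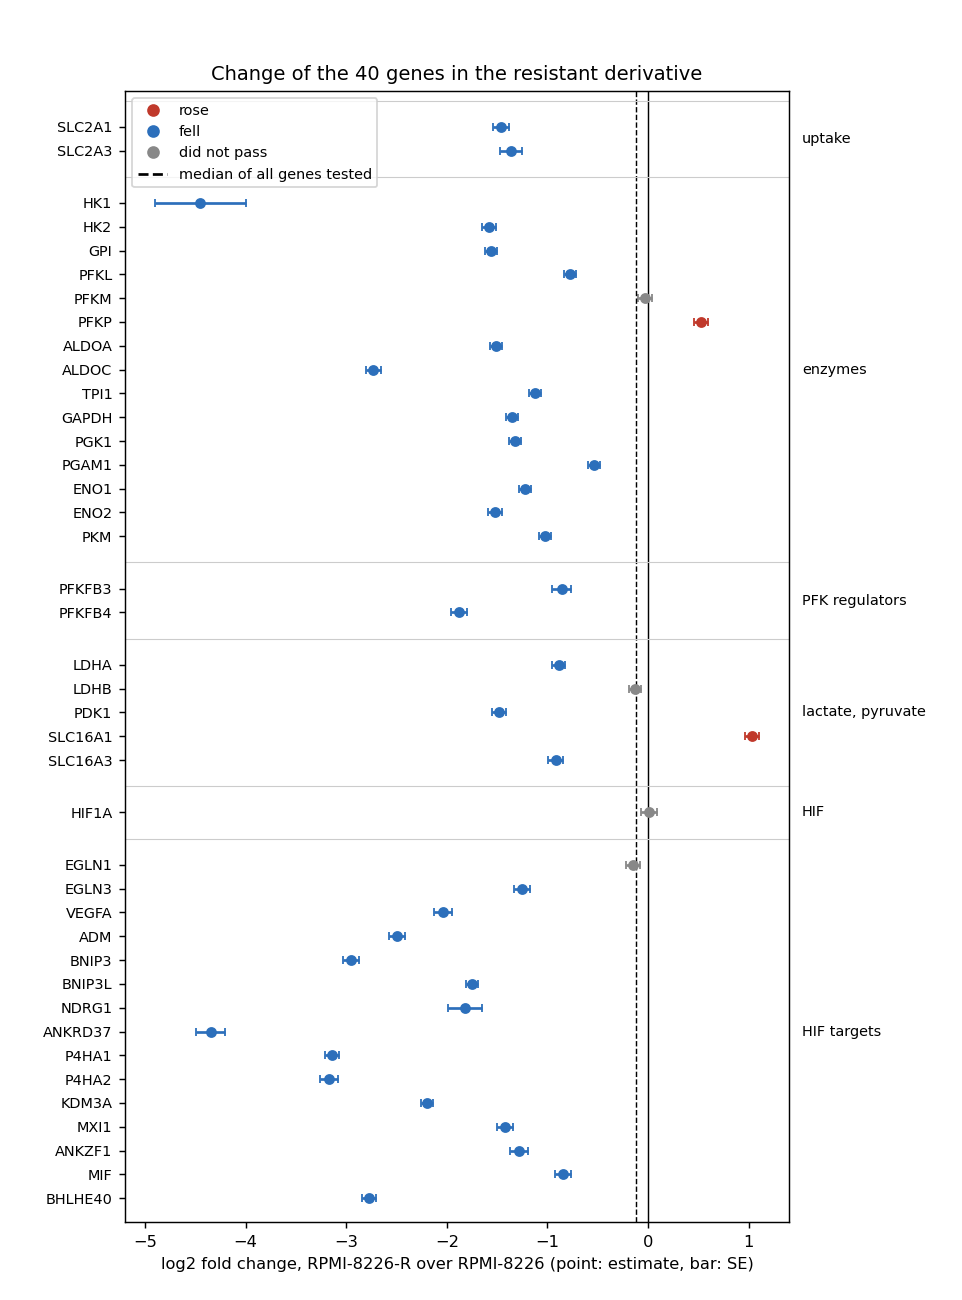
Log2 fold change of each of the 40 genes in RPMI-8226-R over RPMI-8226 (point, edgeR estimate; bar, SE), grouped by role, with the median of all genes tested at -0.12 as a dashed line. PFKP at 0.53 and SLC16A1 at 1.03 are right of 0, PFKM, LDHB, HIF1A and EGLN1 are near it, and ANKRD37 at -4.35 and HK1 at -4.45 are farthest left, HK1 resting on 5 and 0 reads in RPMI-8226-R and lying between -8.77 and -3.42 with 1 library left out.

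In the lactate and pyruvate branch 3 of 5 genes fell, 1 rose and 1 did not pass. Over all genes tested 37.2% fell and 28.5% rose, so a count over so few genes says little about the branch. LDHA, the lactate dehydrogenase subunit that HIF raises, had 892 and 862 CPM in RPMI-8226-R, 1580 and 1670 CPM in RPMI-8226 and 2060 and 2080 CPM in the libraries labelled NCI-BL2171. LDHB, the subunit that predominates in heart, had 904 and 818 CPM in RPMI-8226-R, 917 and 961 CPM in RPMI-8226 and 755 and 767 CPM in the libraries labelled NCI-BL2171. LDHA fell 1.85-fold against RPMI-8226 (edgeR log2 -0.89 ± 0.06 SE, adjusted p = 4.8e-11), while LDHB did not pass (edgeR log2 -0.13 ± 0.06 SE, adjusted p = 0.0885) and was called higher on the TPM scale, at 0.29 (limma-trend, adjusted p = 0.0124). Without RPMI-8226-R library 1, LDHB was called lower (edgeR log2 -0.19, adjusted p = 0.0101). The LDHA share of their summed TPM was 41.5 and 43.1% in RPMI-8226-R, 55.8 and 56.2% in RPMI-8226 and 67.8 and 65.1% in the libraries labelled NCI-BL2171. In TPM, LDHB thus led in RPMI-8226-R and LDHA in the other libraries. In reads the RPMI-8226-R libraries were near even, with 24072 and 24892 for LDHA and 24373 and 23616 for LDHB. Of the reads of LDHA plus its pseudogenes, 22.6 and 22.9% lay on pseudogenes there, against 6.7 and 6.3% for LDHB. Which subunit led in RPMI-8226-R is therefore uncertain.

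PDK1, a kinase that shuts pyruvate dehydrogenase, had 94.0 and 106 CPM in RPMI-8226-R, 276 and 281 CPM in RPMI-8226 and 108 and 113 CPM in the libraries labelled NCI-BL2171, a 2.79-fold fall against RPMI-8226 (edgeR adjusted p = 7.2e-14). The lactate carriers moved in opposite directions. SLC16A1 (MCT1), which carries lactate either way, had 142 and 140 CPM in RPMI-8226-R, 70.6 and 67.9 CPM in RPMI-8226 and 213 and 231 CPM in the libraries labelled NCI-BL2171. SLC16A3 (MCT4), the exporter that HIF raises, had 109 and 118 CPM in RPMI-8226-R, 212 and 219 CPM in RPMI-8226 and 1.94 and 2.13 CPM in the libraries labelled NCI-BL2171. Against RPMI-8226, SLC16A1 rose 2.04-fold (edgeR log2 1.03 ± 0.07 SE, adjusted p = 2.2e-11) and SLC16A3 fell 1.89-fold (edgeR log2 -0.92 ± 0.07 SE, adjusted p = 9.8e-11). The SLC16A3 fall did not pass by limma-trend on log2(TPM + 0.1) (-0.49, adjusted p = 0.1). SLC16A1 held 48.9 and 49.3% of their summed TPM in RPMI-8226-R, 19.4 and 20.7% in RPMI-8226 and 99.1 and 98.8% in the libraries labelled NCI-BL2171.

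**Figure D3:**
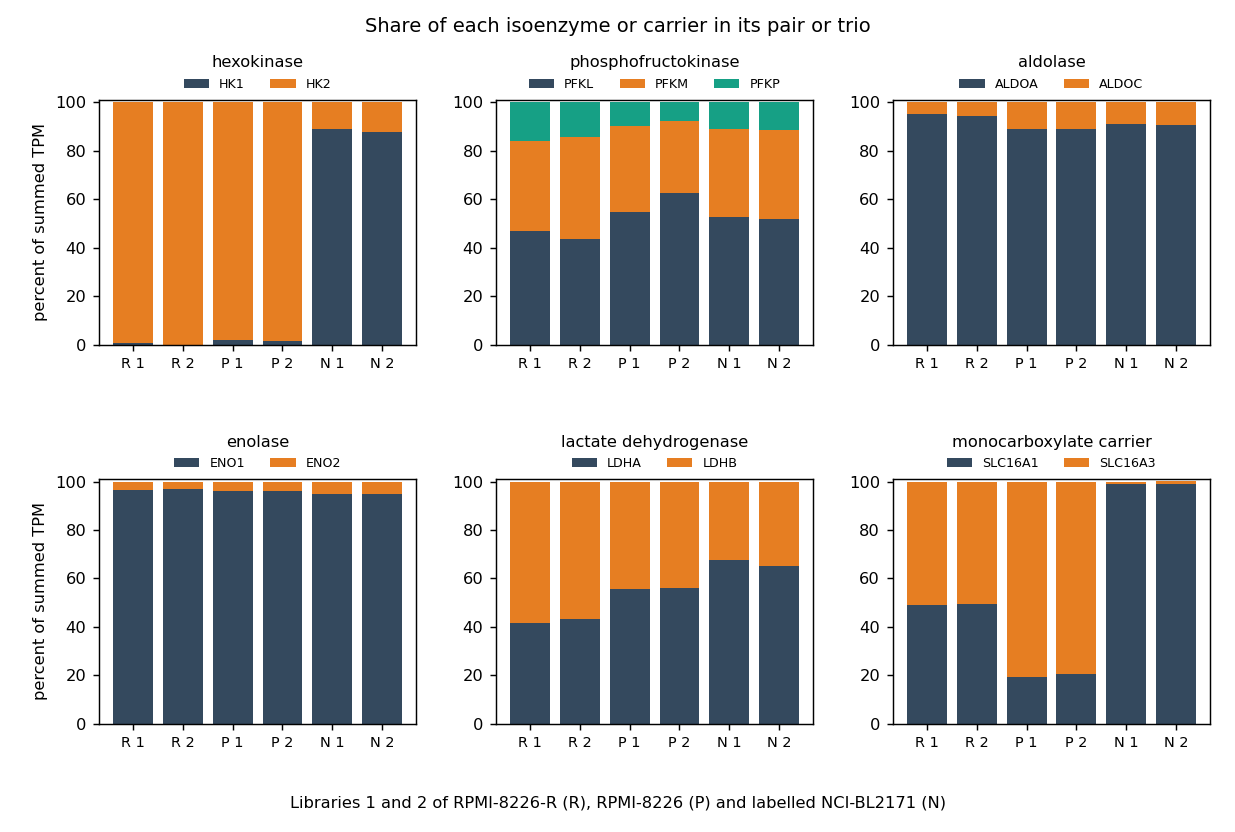
Share of each isoenzyme or carrier in the summed TPM of its pair or trio, as stacked bars from 0 to 100% for libraries 1 and 2 of RPMI-8226-R (R), RPMI-8226 (P) and the line labelled NCI-BL2171 (N). HK1 is nearly all of the hexokinase pair only in N (87.6 and 89.1%), LDHA is under 50% only in R (41.5 and 43.1%), and SLC16A1 rises to 48.9 and 49.3% in R against 19.4 and 20.7% in P. Reads assigned to pseudogenes are not counted in these shares.

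HIF1A itself did not pass the test between the myeloma lines. It had 61.5 and 63.9 CPM in RPMI-8226-R, 65.1 and 59.7 CPM in RPMI-8226 and 29.4 and 32.0 CPM in the libraries labelled NCI-BL2171, with the first 4 libraries overlapping (edgeR log2 0.01 ± 0.08 SE, adjusted p = 0.960). Its 15 targets outside glycolysis were lower in RPMI-8226-R in 14 cases, none was higher and EGLN1 did not pass, with a median log2 fold change of -2.04. Over all genes tested 37.2% fell and 28.5% rose. Genes with roles in mitophagy and collagen fell. BNIP3, a mitophagy receptor, had 12.4 and 11.1 CPM in RPMI-8226-R, 87.3 and 95.1 CPM in RPMI-8226 and 206 and 208 CPM in the libraries labelled NCI-BL2171, a 7.74-fold fall against RPMI-8226 (edgeR log2 -2.95 ± 0.08 SE, adjusted p = 2.9e-17). BNIP3L, its relative, had 64.3 and 65.4 CPM in RPMI-8226-R against 214 and 222 CPM in RPMI-8226, a 3.36-fold fall (edgeR adjusted p = 1.9e-15).

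P4HA1 and P4HA2 are the alpha subunits of collagen prolyl hydroxylase. P4HA1 had 37.2 and 38.6 CPM in RPMI-8226-R, 331 and 338 CPM in RPMI-8226 and 537 and 557 CPM in the libraries labelled NCI-BL2171. P4HA2 had 9.6 and 11.3 CPM in RPMI-8226-R, 90.8 and 96.7 CPM in RPMI-8226 and 56.8 and 54.3 CPM in the libraries labelled NCI-BL2171. Both were lowest in RPMI-8226-R, P4HA1 by 8.82-fold against RPMI-8226 (edgeR log2 -3.14 ± 0.07 SE, adjusted p = 3.0e-19) and P4HA2 by 8.97-fold (edgeR log2 -3.17 ± 0.09 SE, adjusted p = 5.0e-17).

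The secreted products VEGFA, which drives blood vessel growth, and ADM, a peptide that widens vessels, fell as well. VEGFA had 90.2 and 114 CPM in RPMI-8226-R, 406 and 434 CPM in RPMI-8226 and 349 and 361 CPM in the libraries labelled NCI-BL2171, a 4.11-fold fall against RPMI-8226 (edgeR log2 -2.04 ± 0.09 SE, adjusted p = 3.1e-11). ADM had 38.8 and 44.5 CPM in RPMI-8226-R, 229 and 244 CPM in RPMI-8226 and 1.03 and 1.09 CPM in the libraries labelled NCI-BL2171, a 5.67-fold fall against RPMI-8226 (edgeR adjusted p = 1.1e-16). MIF, a cytokine, fell least of the 14, with 675 and 619 CPM in RPMI-8226-R, 1160 and 1170 CPM in RPMI-8226 and 345 and 283 CPM in the libraries labelled NCI-BL2171 (edgeR log2 -0.85 ± 0.08 SE, adjusted p = 3.0e-08).

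ANKRD37, an ankyrin repeat protein on the plus strand of chromosome 4 (chr4:185396021-185400628, GRCh38), had the largest fall of the HIF targets. It had 2.74 and 2.39 CPM in RPMI-8226-R, 53.0 and 51.4 CPM in RPMI-8226 and 14.6 and 18 CPM in the libraries labelled NCI-BL2171, a 20.3-fold fall against RPMI-8226 (edgeR log2 -4.35 ± 0.14 SE, adjusted p = 1.7e-16). Transcription regulators and chromatin enzymes among the targets fell too. BHLHE40, a transcriptional repressor, had 43.5 and 49.3 CPM in RPMI-8226-R, 316 and 317 CPM in RPMI-8226 and 364 and 372 CPM in the libraries labelled NCI-BL2171 (edgeR log2 -2.77 ± 0.07 SE, adjusted p = 5.6e-18). KDM3A, a histone H3 lysine demethylase, had 77.6 and 82.3 CPM in RPMI-8226-R, 369 and 364 CPM in RPMI-8226 and 86.6 and 87.7 CPM in the libraries labelled NCI-BL2171 (edgeR log2 -2.20 ± 0.06 SE, adjusted p = 5.3e-17). MXI1, an antagonist of MYC, had 36.2 and 38.3 CPM in RPMI-8226-R, 97.2 and 102 CPM in RPMI-8226 and 53.1 and 48.4 CPM in the libraries labelled NCI-BL2171. ANKZF1, a factor of ribosome quality control, had 30.1 and 35.5 CPM in RPMI-8226-R, 78.3 and 81.3 CPM in RPMI-8226 and 70.6 and 78.0 CPM in the libraries labelled NCI-BL2171. Both were lowest in RPMI-8226-R, with falls of 2.67-fold and 2.43-fold against RPMI-8226 (edgeR adjusted p = 1.1e-12 and 3.0e-11).

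NDRG1, a stress-response protein, had 135 and 189 CPM in RPMI-8226-R, 574 and 573 CPM in RPMI-8226 and 18.2 and 15.9 CPM in the libraries labelled NCI-BL2171. The RPMI-8226-R libraries stood 1.40-fold apart for it, more than for any other of the 40 genes except HK1 with its 5 and 0 reads, yet both were under RPMI-8226 (edgeR log2 -1.82 ± 0.17 SE, adjusted p = 3.1e-04; -2.07 and -1.59 as the lowest and highest values with 1 library left out). Its deposited gene length was only 259 to 357 bases, so that its TPM (638 and 927 in RPMI-8226-R against 2210 and 1970 in RPMI-8226) is not set against other genes. Of the oxygen sensors, EGLN3 fell 2.39-fold, with 31.5 and 31.4 CPM in RPMI-8226-R against 73.2 and 76.9 CPM in RPMI-8226 (edgeR adjusted p = 5.5e-12), whereas EGLN1, the main HIF prolyl hydroxylase, had 61.6 and 63.0 CPM against 69.9 and 68.7 CPM (edgeR log2 -0.15 ± 0.07 SE, adjusted p = 0.0659). EGLN1 was called lower with protein-coding genes alone (edgeR log2 -0.21, adjusted p = 0.0103) and with an effective-length offset (edgeR log2 -0.33, adjusted p = 0.0337).

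Set side by side, the HIF targets outside glycolysis had a lower median than the glycolytic enzymes. Falls past the threshold of at least 4-fold were found for 8 of 15 HIF targets and 2 of 15 enzymes (HK1 and ALDOC), against 12.3% of all genes tested. Falls of at least 2-fold were found for 13 of 15 HIF targets and 11 of 15 enzymes, against 21.5% of all genes. The medians of -2.04 and -1.32 became -1.69 and -0.86 on the TPM scale, against -0.12 and 0.08 for all genes on each scale. No test of the lists was made, because the members were chosen with results known. Of all 6 libraries both RPMI-8226-R libraries were the lowest for 11 of 15 HIF targets and 9 of 15 enzymes, against 24.7% of all genes tested.

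**Figure D4:**
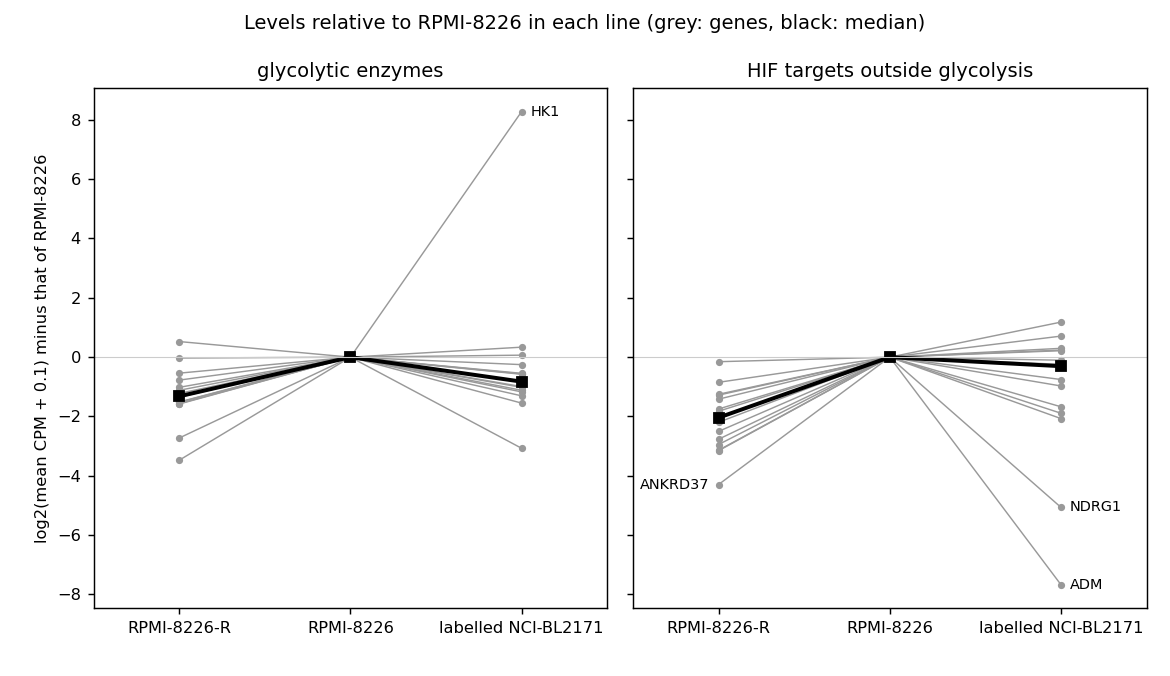
Level of each glycolytic enzyme (left) and each HIF target outside glycolysis (right) in each line, as log2 of mean CPM plus 0.1 minus the value of RPMI-8226, with single genes in grey and their median in black. The median of RPMI-8226-R lies lower for the HIF targets than for the enzymes, whereas in the libraries labelled NCI-BL2171 both medians lie nearer 0 and HK1, NDRG1 and ADM are far from the others.

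Against the libraries labelled NCI-BL2171, RPMI-8226 was higher for most of the 40 genes, with 28 higher, 10 lower and 2 not past the threshold. Over all genes tested 41.1% were higher and 35.6% lower. Of the enzymes 12 of 15 were higher, with PKM the furthest at 8.38-fold (edgeR log2 3.07 ± 0.07 SE, adjusted p = 5.1e-20), and of the HIF targets 9 were higher and 5 lower. The widest gaps were those of ADM, 223-fold higher in RPMI-8226 (edgeR adjusted p = 3.5e-22), of SLC16A3, 106-fold higher (edgeR adjusted p = 2.3e-22), and of HK1, 324-fold lower (edgeR adjusted p = 3.9e-20). BNIP3, BNIP3L, P4HA1, EGLN3 and BHLHE40 were the HIF targets that were lower in RPMI-8226, by 1.16-fold to 2.27-fold. The VEGFA difference of 1.18-fold (edgeR adjusted p = 0.0190) did not pass without either of the libraries labelled NCI-BL2171 or without RPMI-8226 library 2 (log2 0.20 to 0.26), nor by DESeq2 (log2 0.19, adjusted p = 0.0641) or with an effective-length offset (edgeR log2 0.22, adjusted p = 0.102). On the TPM scale, whose shift in this comparison was -0.22, HK2, PGAM1, PFKFB3, PFKFB4, LDHB, EGLN1 and VEGFA did not pass and ALDOC was called lower.

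Against the same libraries RPMI-8226-R was lower for 23 of the 40 genes and higher for 11, with 6 not past the threshold. Over all genes tested 38.2% were lower and 39.2% higher. RPMI-8226-R was lower for 10 of 15 HIF targets, among them BNIP3 by 17.6-fold and P4HA1 by 14.4-fold (edgeR adjusted p = 1.5e-20 and 2.3e-21), and higher for ADM, NDRG1 and MIF. Of the enzymes 9 were lower and 4 were higher, namely PKM and the 3 phosphofructokinases. SLC2A1, TPI1, PGK1, PDK1, EGLN1 and KDM3A did not pass. With protein-coding genes alone SLC2A1, PDK1 and KDM3A were called lower (edgeR log2 -0.19, -0.22 and -0.20, adjusted p = 0.0180, 0.00388 and 0.00578). PGK1 was called lower with an effective-length offset (edgeR log2 -0.16, adjusted p = 0.0214) and EGLN1 higher by limma-voom (log2 0.15, adjusted p = 0.0488). Without RPMI-8226-R library 2, SLC2A1 and PDK1 were called lower (edgeR log2 -0.24 and -0.22), and without NCI-BL2171 library 1 the ENO1 fall was lost (edgeR log2 -0.15, adjusted p = 0.0874). LDHB, higher in RPMI-8226-R by 1.13-fold, did not pass without either library labelled NCI-BL2171 or without RPMI-8226-R library 1 (log2 0.11 to 0.19). On the TPM scale, shifted here by 0.14, ENO1, PFKFB3 and MXI1 did not pass, TPI1 was called higher and PDK1 was called higher. Both comparisons share the libraries labelled NCI-BL2171, whose markers are erythroid, and the part of cell type in either was not tested.

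Genes around the pathway were counted from lists of their own for RPMI-8226-R against RPMI-8226. Of 14 genes listed under pyruvate entry into mitochondria 7 rose and 3 fell, against 28.5% of all genes tested that rose and 37.2% that fell. The list is mixed, with kinases and phosphatases of pyruvate dehydrogenase, a relative of the lactate carriers and BSG beside the subunits. Its genes need not act the same way on pyruvate entry, so the count gives no direction for that step. DLAT, a subunit of pyruvate dehydrogenase, had 172 and 165 CPM in RPMI-8226-R against 67.6 and 66.4 CPM in RPMI-8226 (edgeR log2 1.33 ± 0.07 SE, adjusted p = 2.5e-13). BSG, the chaperone of both lactate carriers, had 460 and 426 CPM in RPMI-8226-R against 977 and 997 CPM in RPMI-8226 (edgeR log2 -1.16 ± 0.06 SE, adjusted p = 1.1e-12). Of 8 genes of the pentose phosphate pathway 5 rose and 2 fell, none by more than 1.54-fold. Of 17 genes of the citrate cycle 4 rose and 9 fell, led by OGDH, 2.11-fold higher, and SDHA, 2.32-fold lower (edgeR adjusted p = 1.2e-11 and 3.3e-13).

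Of 15 tested genes that form or control HIF, 9 rose in RPMI-8226-R and 4 fell, against 28.5% and 37.2% of all genes tested. HIF1AN, the asparagine hydroxylase that blocks HIF's transactivation, had 39.4 and 45.2 CPM in RPMI-8226-R against 15 and 13.9 CPM in RPMI-8226 (edgeR log2 1.55 ± 0.11 SE, adjusted p = 1.2e-10). VHL, EPAS1 and ARNT were chosen after their values were seen. VHL had 125 and 123 CPM in RPMI-8226-R against 59.9 and 61.0 CPM in RPMI-8226. EPAS1, which encodes another HIF alpha subunit, had 39.2 and 44.4 CPM against 18.8 and 18.6 CPM. ARNT, the partner of the alpha subunit, fell, with 55.2 and 59.1 CPM against 79.3 and 81.6 CPM (edgeR log2 -0.49 ± 0.07 SE, adjusted p = 4.3e-06). A coactivator, CREBBP, rose 2.78-fold and the ubiquitin ligase SIAH1 fell 2.27-fold (edgeR adjusted p = 2.4e-12 and 1.0e-09). Among 32 tested of 35 genes listed as further hypoxia-induced genes 23 fell and 2 rose, against 37.2% and 28.5% of all genes tested, with a median log2 fold change of -1.26. The list includes HK2-DT and EGLN3-AS1, transcripts named after members. The rises were HMOX1, by 1.32-fold (edgeR adjusted p = 2.9e-05), and HK2-DT, which is described further below. HILPDA, a lipid droplet protein, had 28.8 and 32.5 CPM in RPMI-8226-R against 909 and 927 CPM in RPMI-8226, and ANGPTL4, an inhibitor of lipoprotein lipase, had 1.15 and 1.32 CPM against 49.9 and 51.4 CPM. HILPDA and ANGPTL4 fell 29.9-fold and 40.9-fold (edgeR adjusted p = 1.6e-21 and 3.0e-17).

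Several enzymes have processed pseudogenes, which are near-identical copies, and the reads given to them bear on the levels above. Of the reads of TPI1 plus its pseudogenes, 46.7 and 46.9% lay on pseudogenes in RPMI-8226-R, 45.0 and 46.1% in RPMI-8226 and 45.8 and 46.0% in the libraries labelled NCI-BL2171. For GAPDH the shares were 32.6 and 32.8% in RPMI-8226-R, 32.5 and 32.8% in RPMI-8226 and 29.5 and 30.0% in the libraries labelled NCI-BL2171, mostly on GAPDHP1. Between RPMI-8226-R and RPMI-8226 these shares lay close together, and with pseudogene reads added the log2 fold changes of RPMI-8226-R over RPMI-8226 were -1.08 for TPI1 and -1.35 for GAPDH. BNIP3 was the exception, with 49.2 and 56.2% in RPMI-8226-R against 39.8 and 41.0% in RPMI-8226, and with its pseudogenes added its log2 fold change was -2.62. The levels of these genes are therefore uncertain, while their directions held with the reads added.

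**Figure D5:**
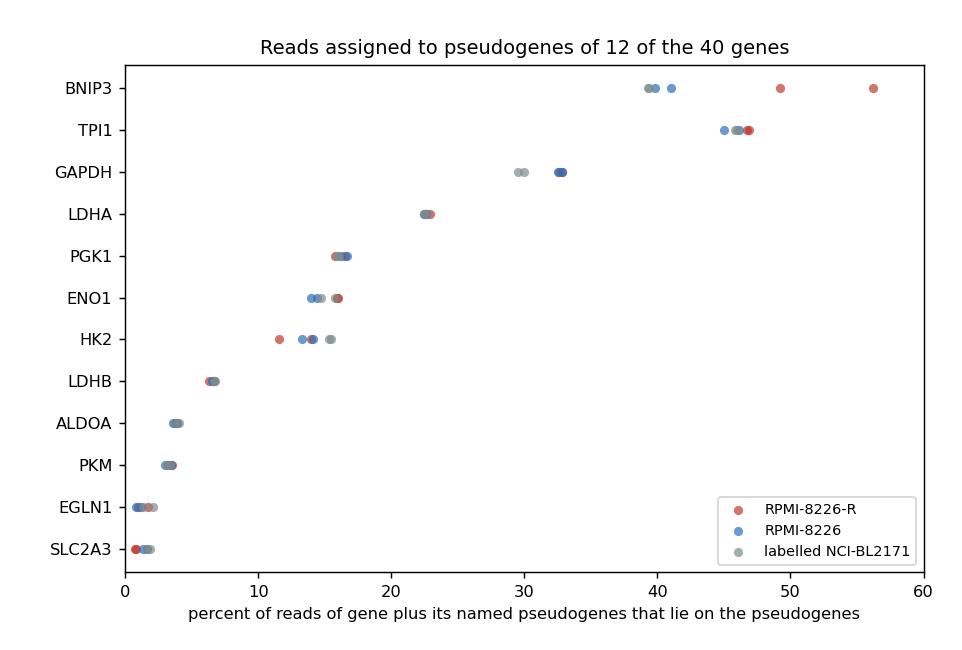
Percent of the reads of a gene plus its named pseudogenes that were assigned to the pseudogenes, 1 point per library coloured by line, for the 12 of the 40 genes where this reached 1% in any library. TPI1 lies at 45.0 to 46.9% in every library, whereas BNIP3 lies at 49.2 and 56.2% in RPMI-8226-R and at 39.3 to 41.0% in the other lines.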

How the data were processed

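Each library has a table deposited by the authors, which lists 61544 genes with their reads, TPM and lengths in bases. The deposited estimated counts need not be whole and were rounded before testing; the deposited TPM values serve for levels between genes. Deposited lengths and effective lengths are another unit, in bases per the file headers. The submitters' processing notes name GRCh38.p13 as the build; no source used here gives the quantifier, its annotation or its use of strand, so reads of near-identical, overlapping or antisense genes can be split in unknown ways. Pseudoautosomal Y copies (46) were added to their X copies. Symbols were matched for 61399 of 61498 genes, and positions come from GENCODE 29.

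All 6 libraries entered 1 fit by edgeR 4.0.16 (R 4.3.3) with TMM scaling, filterByExpr at a minimum count of 10, and two-sided quasi-likelihood F tests in robust mode with 3 residual degrees of freedom. Benjamini-Hochberg adjustment ran over 20081 genes, with a threshold of 0.05. SE is the size of the log2 fold change divided by the square root of F. DESeq2 1.42.0 and limma 3.58.1 on log2(TPM + 1) were among 12 alternatives, beside leaving out each library. Where a line had 3 reads or fewer, ratios are of counts with 95% intervals, which cover counting error only. The procedure was tested on simulated data.

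Promoter windows, 250 bases before a gene's start, are RefSeq's (GRCh38.p14). Members and lists were chosen with earlier results of these data known. All members may be named. Of each pathway list up to 2 rises and 2 falls past the threshold with at least 5 TPM in the higher line are. VHL, EPAS1, ARNT and ADPGK are named beside these.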

Additional observations from a re-analysis of the deposited data

How the results depend on the processing

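For RPMI-8226-R over RPMI-8226, 31 of the 40 genes kept their direction and side of the threshold under all 18 alternatives, against 24 where RPMI-8226 and 28 where RPMI-8226-R was set over the libraries labelled NCI-BL2171. Same-numbered libraries did not deviate together (correlations 0.052, 0.047 and 0.054) and share only a number. Numbers follow the titles; the names of the deposited tables number the libraries labelled NCI-BL2171 the other way round, which bears on 2 of these correlations and on the block. The replicate block changed no count by over 1.5 times, with 13045, 15295 and 15426 genes called in the 3 comparisons and 34 members falling for RPMI-8226-R over RPMI-8226; PDK1 in RPMI-8226-R over the libraries labelled NCI-BL2171 was the 1 member whose call it changed (edgeR log2 -0.15, adjusted p = 0.0432). Only 2 libraries a line limit the precision, and where a value changed the cause was not tested.

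For RPMI-8226-R over RPMI-8226, a test against a 1.5-fold change called 7648 genes with 1 member rising, and limma-trend on log2(TPM + 1) or log2(TPM + 0.1) gave 4 members rising. The median of the enzymes was -0.86 and -0.96 on these TPM scales, -1.38 with protein-coding genes alone and -1.24 with the 4 libraries compared, and that of the HIF targets -1.69 and -1.71 on the TPM scales. For RPMI-8226 over the libraries labelled NCI-BL2171, 5 members fell in the 1.5-fold test, the median of the enzymes was 0.64 on both TPM scales, and that of the HIF targets 0.26 with RLE size factors and with DESeq2, 0.05 on both TPM scales and 0.24 with an effective-length offset. For RPMI-8226-R over the libraries labelled NCI-BL2171, the median of the enzymes was -0.14 on both TPM scales and -0.36 with protein-coding genes alone, and that of the HIF targets -1.21 and -1.26 on the TPM scales, -1.38 with the offset and -1.63 with protein-coding genes alone.

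Leaving out 1 library, the number of genes called ranged over 11600 to 13191 for RPMI-8226-R over RPMI-8226, 14396 to 16281 where RPMI-8226 and 14435 to 15683 where RPMI-8226-R was set over the libraries labelled NCI-BL2171. Members rising and falling ranged over 2 and 34 to 35, over 27 to 28 and 10, and over 10 to 11 and 22 to 25. The median of the enzymes ranged over -1.36 to -1.27, 0.77 to 0.87 and -0.31 to -0.24 in this order, and that of the HIF targets over -2.20 to -1.87, 0.28 to 0.33 and -1.59 to -1.51. The lone library then left in a line is assumed to vary like the others.

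Only members that did not pass turned their sign. For RPMI-8226-R over RPMI-8226, PFKM was 0.02 with RLE size factors, DESeq2 or without RPMI-8226-R library 1, 0.36 on both TPM scales, 0.04 with the offset and 0.06 with 4 libraries. LDHB was 0.29 on both TPM scales, and HIF1A was -0.05 with protein-coding genes alone, and between -0.05 and 0.07 with 1 library left out, below 0 without RPMI-8226 library 2 or RPMI-8226-R library 2 (-0.01). For RPMI-8226 over the libraries labelled NCI-BL2171, ANKZF1 was -0.03 on both TPM scales. For RPMI-8226-R over them, SLC2A1 was 0.20 on both TPM scales, 0.09 with the offset and 0.02 without RPMI-8226-R library 1. TPI1 was -0.02 with protein-coding genes alone, and PGK1 was 0.02 to 0.03 without NCI-BL2171 library 1 or RPMI-8226-R library 2. PDK1 was 0.38 and 0.39 on the TPM scales and 0.27 with the offset (edgeR adjusted p = 0.00682), EGLN1 was -0.09 with the offset, and KDM3A was 0.18 and 0.19 on the TPM scales and 0.06 with the offset.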

Other observations

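HK2-DT, a lincRNA on the minus strand of chromosome 2 (chr2:74832655-74833987, GRCh38) whose annotation shares 7 bases with the start of HK2 on the plus strand, had 163 and 185 reads in RPMI-8226-R, 1 and 2 reads in RPMI-8226 and 2 and 4 reads in the libraries labelled NCI-BL2171. The ratio of counts of RPMI-8226-R over RPMI-8226 was 108 (95% interval 36.8 to 529, counting error alone), while HK2 itself fell 2.99-fold. Whether the counting used strand is not stated.

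PKLR, the pyruvate kinase of liver and red cells, had 3 reads in RPMI-8226-R and 3 in RPMI-8226, against 153 and 141 CPM in the libraries labelled NCI-BL2171. Those libraries were higher than RPMI-8226-R by a ratio of counts of 2740 (95% interval 936 to 13300) and higher than RPMI-8226 by 2560 (876 to 12400). PGM1, phosphoglucomutase, had no read in either library labelled NCI-BL2171 and was at least 120-fold higher in RPMI-8226-R and at least 213-fold higher in RPMI-8226, against a floor of 3 counts per library.

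The deposited gene length, which follows the transcripts found in a library, differed at least 1.2-fold without overlap between RPMI-8226-R and RPMI-8226 for 5 of the 40 genes, against 13.7% of all genes tested. BHLHE40 had 2003 and 1828 bases in RPMI-8226-R against 1492 and 1441 bases in RPMI-8226, and BNIP3 had 1555 and 1504 bases against 1926 and 1936 bases. The others were SLC2A3, P4HA2 (both longer in RPMI-8226-R) and PDK1 (shorter).

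Of the 40 genes 7 lie on chromosome 10 and 6 on chromosome 12. On chromosome 10, PFKP rose in RPMI-8226-R against RPMI-8226 while HK1, PGAM1, PFKFB3, BNIP3, P4HA1 and MXI1 fell. On chromosome 12, SLC2A3, TPI1, GAPDH and ENO2 fell while PFKM and LDHB did not pass. Of all 40 genes 34 fell. The share of falls over all genes of these chromosomes was not counted, so no pattern by chromosome is shown.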
